A study of Homo sapiens with 6 samples.

Results

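The genes described here encode the proteins that choose splice sites: the serine and arginine rich (SR) proteins, the heterogeneous nuclear ribonucleoproteins (hnRNPs) and the kinases and cofactors that work with them. The list holds 49 genes, and a probe set counted as a member where the platform annotation gives a listed gene as its only symbol. This found 46 of the 49 genes with 183 probe sets, out of 19775 genes and 54613 probe sets on the array outside its controls. SRSF2, SRSF9 and HNRNPH2 had no probe set of their own and were not analysed here. Of the 183 probe sets, 166 passed the filter on low signal and were tested, and 17 did not pass it, but each of the 46 genes kept at least 1. A gene with several tested probe sets is represented by the brightest.

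The study measured messenger RNA in Kasumi-1, a human acute myeloid leukaemia cell line that carries the RUNX1-RUNX1T1 fusion, on one-colour Affymetrix 3' arrays. One group of 3 arrays came from cells given vehicle for 24 h, and the other 3 from cells given 20 nM homoharringtonine (HHT) for the same time, an alkaloid that blocks the elongation step of translation. The data cover 1 line, 1 dose and 1 time. Whether the arrays of a group stem from separate cultures is not stated in the labels. The p-values therefore set each difference only against the scatter among these samples, and that scatter may be technical.

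SR proteins bind exonic enhancers and mostly help an exon to be included, while hnRNPs bind enhancers and silencers in exons and introns and often oppose them. Many of these genes control their own dose through a poison exon or a retained intron: the protein steers its own pre-mRNA to a form with an early stop codon, which nonsense-mediated decay destroys. That decay needs translating ribosomes, so inhibitors of translation are known to let such forms build up. The array reads short stretches near the 3' end of annotated transcripts, and different probe sets of 1 gene can read different transcript forms. Where each probe set lies relative to a poison exon was not analysed here.

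On the deposited values, the HHT arrays held less signal for most of these regulators. Of the 46 genes, 27 fell (58.7%) where 24.2% of all genes tested fell, 11 rose (23.9%) where 29.6% of all genes rose, and 8 were not called, where 53.8% of all genes were called either way. Called means an adjusted p under 0.05 in limma, on the difference of log2 signals. The median difference was -0.29 over the 46 genes and 0.00 over all 13572 genes tested. The groups did not overlap for 39 of the 46 genes, and for 62.2% of all genes. Counted by probe set, 81 of 166 fell against a background of 23.3%, and 34 rose against 23%. The RNA is from bulk culture, where fewer cells of a kind and less RNA per cell cannot be told apart.

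**Figure D1:**
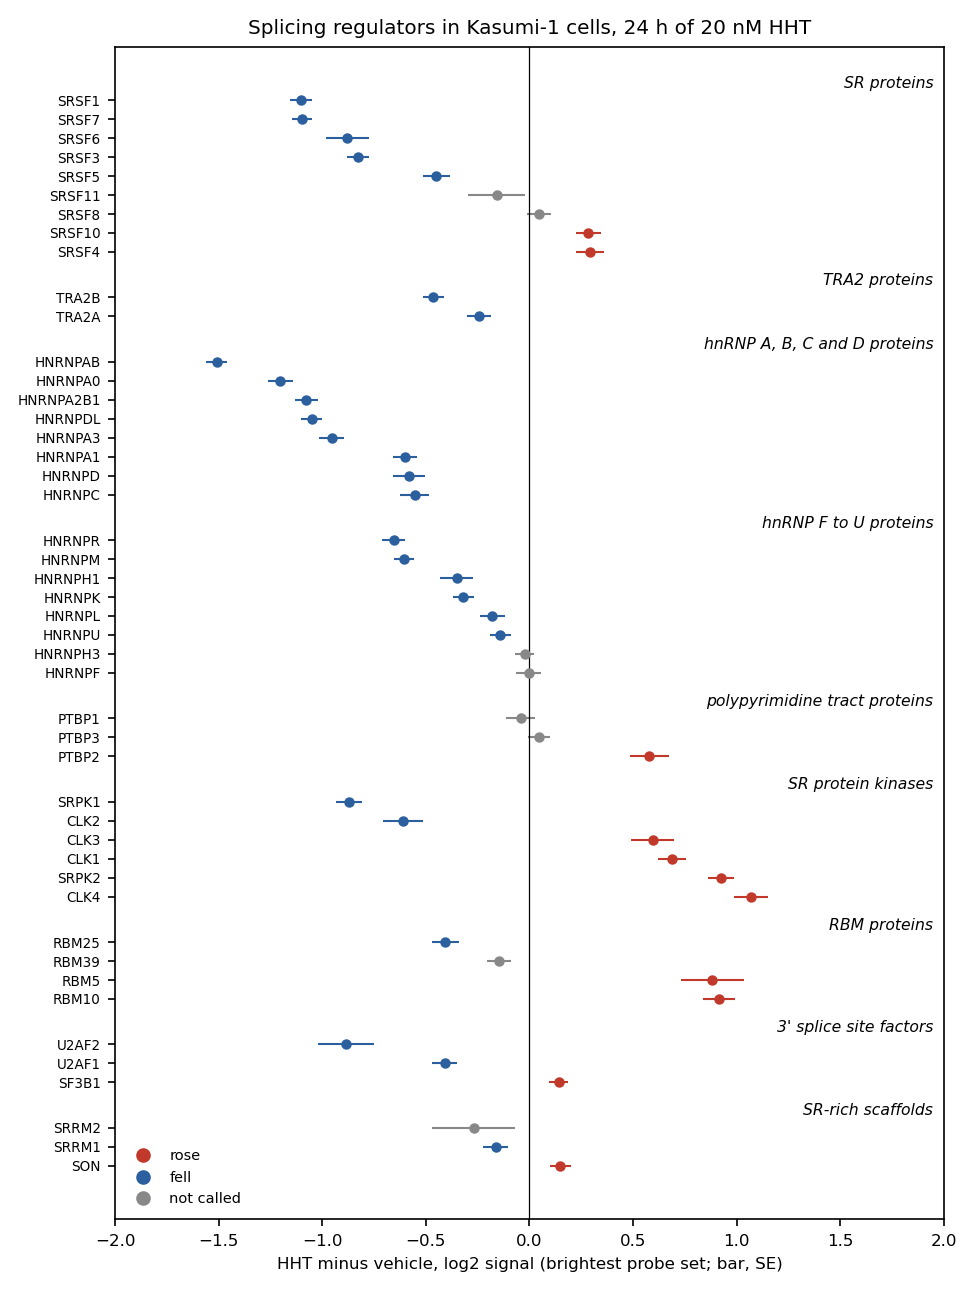
Difference in log2 signal between HHT and vehicle (x axis) for the brightest probe set of each of the 46 genes, grouped by role, with bars for the standard error. All 8 hnRNP A, B, C and D genes lie left of 0, from -1.51 to -0.56, while 4 of the 6 SR protein kinases lie right of it.

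These genes are among the brightest on the array, and the brightest genes fell in general. At a mean level of 13 or more, 18 of 23 members fell and 2 rose, while 69.3% of all 641 genes at that level fell and 11.2% rose. The median difference there was -0.56 for the members and -0.31 for all genes. Between 11 and 13, 7 of 16 members fell and 5 rose, with 34.6% and 39.8% of all genes, of which 74.4% were called either way. Below 11, 2 of 7 members fell and 4 rose, with 18.5% and 28% of all genes. The part of signal level in the members' falls was not tested.

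**Figure D2:**
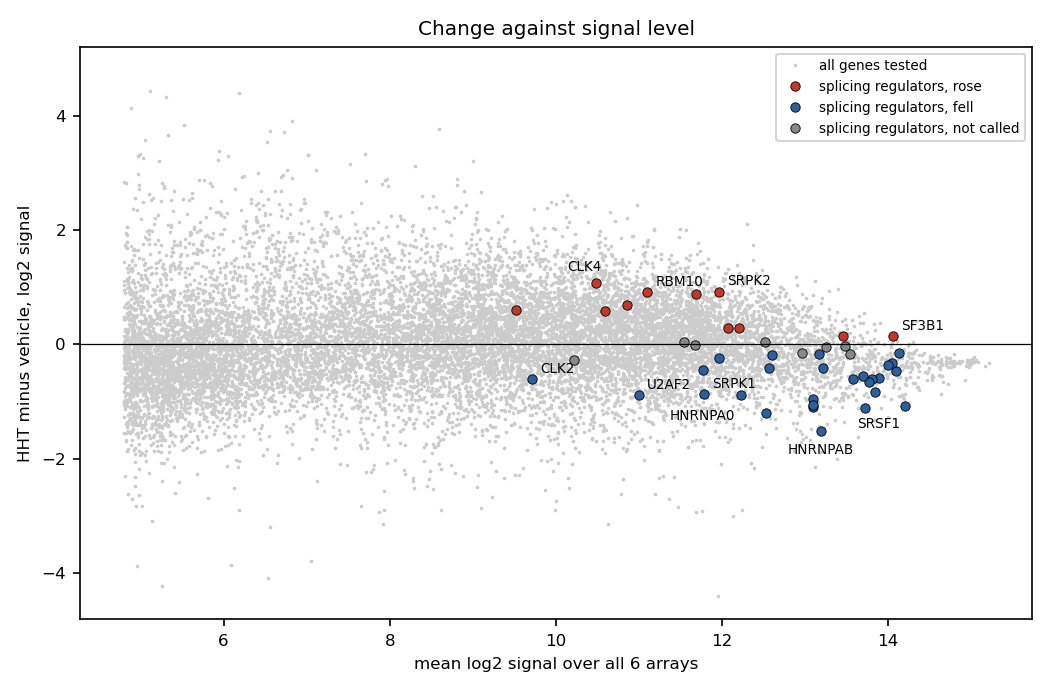
Difference in log2 signal between HHT and vehicle (y axis) against the mean log2 signal over all 6 arrays (x axis), for every gene tested (grey) and for the 46 splicing regulators (coloured by call). The cloud of all genes bends below 0 at its bright end, and at a level of 13 or more 18 of the 23 regulators fell.

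The arrays share a trimmed mean of 500.06 to 500.07 on the antilog scale, but they differ in other measures of signal. Their medians were 5.82 to 5.96 in vehicle and 5.53 to 5.78 in HHT, and the means of 18 probe sets for spiked-in hybridisation controls were 11.96 to 12.01 and 11.63 to 11.75. Scaling to equal medians moved the median difference of all genes to 0.24 and that of the member genes to -0.06. With equal controls these medians were 0.28 and -0.01, and with quantile normalization 0.05 and -0.07. With equal medians 17 member genes fell and 12 rose, beside 12.7% and 37.3% of all genes. With equal controls 17 fell and 16 rose, beside 12.8% and 41.6%, and with quantile normalization 21 fell and 15 rose, beside 22.9% and 29.8%. Equal medians and equal controls leave untouched the difference between 2 probe sets of a gene on the same array. The sample titles also count vehicle arrays before HHT arrays, and a drift along this numbering and the treatment cannot be told apart. Of 8 markers of the line, 6 were measured: KIT, CD34 and MPO fell, PTPRC rose, and RUNX1T1 and SPN were not called. Of the other lists, the 2 T cell markers measured of 3 had a mean level per array of 8.52 to 8.94 in vehicle and 7.82 to 8.74 in HHT, and the B cell markers MS4A1 and CD79A 6.16 to 6.66 and 5.79 to 6.52. HBB, an erythroid marker, lay at 6.16 to 6.87 and 5.98 to 6.59. EPCAM, the only epithelial marker of 3 measured, fell from 13.69 to 12.93, and the 2 of 3 fibroblast markers had means of 5.06 to 6.62 and 5.597 to 6.24. CD3G, HBA1, KRT19, CDH1 and PDGFRB were not tested, while CD3D was bright at 11.62 in vehicle and 11.76 in HHT. Their part in the results was not tested.

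Of the 9 SR proteins measured, 5 fell (SRSF1, SRSF3, SRSF5, SRSF6 and SRSF7), 2 rose (SRSF4 and SRSF10) and 2 were not called (SRSF8 and SRSF11). Their median was -0.45. Of all genes 24.2% fell and 29.6% rose, and of those at a mean level of 13 or more 69.3% fell. SRSF1, which recognises purine-rich exonic enhancers and also acts in export and translation, had levels of 14.32, 14.23 and 14.29 in vehicle and 13.11, 13.21 and 13.21 in HHT on its brightest probe set. The groups were far apart beside their own spread. In HHT the signal was 2.15-fold lower, a fall of 1.10 in log2 units (SE 0.0521, adjusted p = 1.08e-07). SRSF7, a zinc-knuckle SR protein with a role in export, read 13.65, 13.61 and 13.67 in vehicle and 12.55, 12.52 and 12.56 in HHT. It fell by 1.10 (SE 0.0496, adjusted p = 8.70e-08), again without overlap. SRSF3, the smallest SR protein, fell by 0.83 on its brightest probe set, and all 5 of its tested probe sets fell, by 0.81 to 1.26. SRSF6 fell by 0.88 and 1.12 on its 2 tested probe sets.

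The rises among the SR proteins were smaller. SRSF4 rose by 0.29 (SE 0.0654, adjusted p = 0.00378) and SRSF10, an unusual SR protein that represses splicing when it loses its phosphates, by 0.28 (SE 0.0619, adjusted p = 0.00320). Both calls were lost when all tested probe sets of the gene were averaged, at 0.17 (adjusted p = 0.506) and 0.03 (adjusted p = 0.734). SRSF5 fell by 0.45 on its brightest probe set and lost its call with that average (-0.05, adjusted p = 0.846), with equal medians (-0.21, adjusted p = 0.108) or with equal controls (-0.17, adjusted p = 0.108). The falls of SRSF1, SRSF3, SRSF6 and SRSF7 and the rises of SRSF4 and SRSF10 were called under every scaling tried.

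The TRA2 proteins are SR-like activators that bind GAA-rich enhancers, and both genes fell on the brightest probe set. TRA2B had 14.36, 14.32 and 14.29 in vehicle and 13.93, 13.84 and 13.80 in HHT, a fall of 0.46 (SE 0.0517, adjusted p = 3.09e-05). TRA2A read 12.06, 12.05 and 12.14 in vehicle and 11.89, 11.80 and 11.82 in HHT, and it fell by 0.24 (SE 0.0592, adjusted p = 0.00590). Neither gene's groups overlapped, but the differences are small beside the shifts between scalings. With equal medians TRA2B was at -0.22 (adjusted p = 0.0556) and TRA2A at -0.01 (adjusted p = 0.972), and with equal controls TRA2A turned to 0.04 (adjusted p = 0.715). Its 4 other tested probe sets were not called.

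The hnRNP A, B, C and D genes moved one way. All 8 fell, with a median of -1.003, beside 24.2% of all genes. Their vehicle means were 13.13 to 14.74. Of all genes at a mean level of 13 or more 69.3% fell, with a median difference of -0.31. All 8 falls were called under each scaling tried. Of the group's 31 tested probe sets 27 fell, beside 23.3% of all probe sets tested, and 3 were not called. The 1 that rose is a probe set of HNRNPA2B1 described further on. HNRNPAB, an RNA-binding protein found with the editing enzyme APOBEC1, had the largest fall of all 46 genes on the brightest probe set. Its levels were 13.97, 13.94 and 13.92 in vehicle and 12.40, 12.44 and 12.46 in HHT. The fall was 1.51 (SE 0.0496, adjusted p = 1.96e-08), a 2.85-fold lower signal on the gene's only probe set of its own. HNRNPA0, a small member of the A group, read 13.10, 13.07 and 13.21 in vehicle and 11.92, 11.86 and 11.99 in HHT and fell by 1.20 (SE 0.0623, adjusted p = 1.88e-07). Its 2 further probe sets fell by 1.32 and 1.44. HNRNPA2B1, HNRNPDL and HNRNPA3 fell by 1.08, 1.05 and 0.95, and HNRNPA1, HNRNPD and HNRNPC by 0.60, 0.58 and 0.56. HNRNPA1, HNRNPA3 and HNRNPC have many processed pseudogenes. The brightest probe sets of HNRNPA1 and HNRNPC may also match other sequences (names ending in _x_at), which leaves their source less certain. HNRNPA3 has no probe set so named.

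The promoter letters of this group are shown because its 8 genes fell together. The 250 bases before a transcription start, from RefSeq on GRCh38.p14, were searched for CACGTG, the palindromic motif that MYC and its partner MAX bind, and for CCGGAA with its reverse complement TTCCGG, the core of many ETS factor motifs. The motifs do not overlap each other. Capitals mark matches to either, each sequence runs 5′ to 3′ on the strand of its gene, and HNRNPAB, with the largest fall, and CLK4, with the largest rise on a brightest probe set, stand beside the 3 genes of the group that hold CACGTG, which were picked for it.
HNRNPAB, chr5:178204283-178204532, plus strand: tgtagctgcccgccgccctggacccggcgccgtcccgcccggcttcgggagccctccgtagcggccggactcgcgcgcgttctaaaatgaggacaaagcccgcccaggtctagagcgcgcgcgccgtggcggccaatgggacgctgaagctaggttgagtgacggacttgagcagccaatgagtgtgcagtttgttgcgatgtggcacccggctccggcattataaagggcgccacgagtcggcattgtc
HNRNPA3, chr2:177212544-177212793, plus strand: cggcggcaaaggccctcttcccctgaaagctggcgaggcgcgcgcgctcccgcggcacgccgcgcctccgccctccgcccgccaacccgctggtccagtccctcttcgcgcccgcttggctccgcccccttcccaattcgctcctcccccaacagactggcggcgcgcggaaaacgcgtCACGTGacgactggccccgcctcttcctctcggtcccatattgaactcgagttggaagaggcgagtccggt
HNRNPD, chr4:82373992-82374241, minus strand: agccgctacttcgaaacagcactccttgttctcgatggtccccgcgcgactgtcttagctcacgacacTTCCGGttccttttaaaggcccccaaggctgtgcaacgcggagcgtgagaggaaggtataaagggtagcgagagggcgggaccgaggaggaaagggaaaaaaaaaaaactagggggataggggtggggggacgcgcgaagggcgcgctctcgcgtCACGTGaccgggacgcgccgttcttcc
HNRNPDL, chr4:82430463-82430712, minus strand: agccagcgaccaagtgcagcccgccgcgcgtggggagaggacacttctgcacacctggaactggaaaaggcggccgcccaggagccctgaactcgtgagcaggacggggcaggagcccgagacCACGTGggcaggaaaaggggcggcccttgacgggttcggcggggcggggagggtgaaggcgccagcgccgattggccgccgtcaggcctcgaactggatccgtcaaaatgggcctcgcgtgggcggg
CLK4, chr5:178627051-178627300, minus strand: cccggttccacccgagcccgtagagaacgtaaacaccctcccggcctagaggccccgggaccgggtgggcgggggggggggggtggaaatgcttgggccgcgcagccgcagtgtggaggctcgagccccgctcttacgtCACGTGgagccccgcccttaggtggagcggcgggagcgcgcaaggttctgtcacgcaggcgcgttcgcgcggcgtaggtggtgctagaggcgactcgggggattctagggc
CACGTG stands in the promoters of HNRNPA3, HNRNPD, HNRNPDL and CLK4 shown, and neither motif stands in that of HNRNPAB, nor in those of HNRNPA0, HNRNPA2B1 and HNRNPC, which are not shown. No promoter of HNRNPA1 was used here. Of the 46 genes measured, 43 had a promoter in the tables. CACGTG was found for 5 of 25 genes that fell (the others are HNRNPM and CLK2), for 2 of 11 that rose (CLK4 and SF3B1) and for 1 of 7 not called, HNRNPH3. It stands in 6.35% of all 35116 promoters of this length and in a promoter of 7.73% of all genes. CCGGAA was found for 6 of 25 genes that fell, 2 of 11 that rose and 1 of 7 not called. It stands in 14.5% of all promoters and in a promoter of 17.2% of all genes. A match describes the letters only.

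Of the 8 hnRNP F to U genes measured, 6 fell and 2, HNRNPF and HNRNPH3, were not called, with a median of -0.25. Their vehicle means were 11.68 to 14.20. Of all genes 24.2% fell, and of those at a mean level of 13 or more 69.3%. HNRNPR, an RNA-binding protein close to SYNCRIP, read 14.01, 14.15 and 14.15 in vehicle and 13.43, 13.47 and 13.44 in HHT, a fall of 0.66 (SE 0.0548, adjusted p = 3.91e-06). HNRNPM, a repressor of many exons, read 13.90, 13.89 and 13.84 in vehicle and 13.25, 13.28 and 13.29 in HHT, a fall of 0.60 (SE 0.0482, adjusted p = 2.85e-06). Groups of both genes were well separated, and these 2 falls were called under every scaling. The falls of HNRNPH1 (-0.35), HNRNPK (-0.32), HNRNPL (-0.18) and HNRNPU (-0.14) were not called with equal medians, and HNRNPU turned to 0.24 after quantile normalization (adjusted p = 0.00103). In the fits without 1 array HNRNPU lost its call in 5 of 6 (adjusted p of 0.0534 to 0.129) and HNRNPL in 4 of 6 (0.0631 to 0.0956). HNRNPF, a binder of G-runs, stayed close in both groups, at 11.68 ± 0.0570 in vehicle and 11.68 ± 0.0420 in HHT (SD, n = 3). None of the 4 tested probe sets of HNRNPH3 was called, with differences of -0.09 to 0.07. HNRNPF and HNRNPH3 were both called as higher with equal controls, at 0.28 and 0.26. HNRNPH1 and its close copy HNRNPH2 can share probes.

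The polypyrimidine tract proteins repress exons with pyrimidine-rich flanks, and PTBP1 is known to keep PTBP2 low by forcing a poison form of its mRNA. PTBP2 read 10.27, 10.23 and 10.42 in vehicle and 10.93, 11.02 and 10.71 in HHT. The groups did not overlap, and the rise was 0.58 (SE 0.0944, adjusted p = 0.000478). PTBP1 lay at 13.28 ± 0.130 in vehicle and 13.24 ± 0.0535 in HHT and was not called, but it was higher by 0.24 and called after quantile normalization and with equal controls. PTBP3 was not called on its brightest probe set (0.05), while 2 dimmer ones rose by 0.71 and 0.67. With equal medians, equal controls or quantile normalization PTBP3 was called on its brightest probe set too. PTBP2's second tested probe set, at 0.23, was not called.

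Of the 6 kinases that phosphorylate SR proteins 4 rose and 2 fell, beside 29.6% and 24.2% of all genes. SRPK kinases act in the cytoplasm and send SR proteins to the nucleus, and CLK kinases act on them in the nucleus. CLK4 had the largest rise of the 46 genes on a brightest probe set, from 9.95, 9.85 and 10.07 in vehicle to 11.04, 11.08 and 10.96 in HHT. This was 1.07 (SE 0.0811, adjusted p = 2.06e-06), a 2.10-fold higher signal, and a second CLK4 probe set rose 2.90-fold. SRPK2 read 11.45, 11.58 and 11.47 in vehicle and 12.45, 12.47 and 12.36 in HHT, a rise of 0.93 (SE 0.0628, adjusted p = 9.81e-07). All 5 of its tested probe sets rose, by 0.67 to 1.01. CLK1 rose by 0.69 and CLK3 by 0.59, while SRPK1 fell by 0.87 and CLK2 by 0.61. SRPK1 and SRPK2 thus moved in opposite directions, and the 6 kinase calls stood under every scaling.

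RBM5 and RBM10 are related regulators, known for their effect on FAS and NUMB splicing, and both rose. RBM5 had 11.54, 11.39 and 10.82 in vehicle and 12.23, 12.09 and 12.08 in HHT, a rise of 0.88 (SE 0.152, adjusted p = 0.000687). Its vehicle arrays spread widely, yet all lay below the HHT arrays. RBM10 read 10.76, 10.65 and 10.53 in vehicle and 11.64, 11.51 and 11.53 in HHT, a rise of 0.92 (SE 0.0777, adjusted p = 4.35e-06), and all 3 of its probe sets rose. RBM25, a regulator of BCL2L1 splicing, fell by 0.41 and lost that call with equal medians (-0.17, adjusted p = 0.188). RBM39, a U2AF-related coactivator, differed by -0.15 and was not called.

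Among the factors that mark the 3' splice site, U2AF2, which binds the polypyrimidine tract, read 11.10, 11.54 and 11.68 in vehicle and 10.64, 10.63 and 10.39 in HHT. It fell by 0.89 (SE 0.135, adjusted p = 0.000300) without overlap, and its second tested probe set fell by 0.88. U2AF1, its partner at the AG dinucleotide, read 13.52, 13.36 and 13.40 in vehicle and 12.95, 13.02 and 13.08 in HHT, a fall of 0.41 (SE 0.0605, adjusted p = 0.000239). That call was lost with equal medians (-0.17, adjusted p = 0.226), and probes of U2AF1 can match its near-identical copy. SF3B1, the U2 snRNP subunit that clasps the branch point, rose by 0.14 (SE 0.0471, adjusted p = 0.0316), from 13.97, 14.02 and 13.97 in vehicle to 14.09, 14.16 and 14.14 in HHT. The rise is small, and it was not called without vehicle replicate 3 (adjusted p = 0.0694), HHT replicate 2 (adjusted p = 0.136) or HHT replicate 3 (adjusted p = 0.0921).

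The large SR-rich scaffolds of nuclear speckles showed small differences. SON read 13.39, 13.41 and 13.34 in vehicle and 13.57, 13.54 and 13.48 in HHT, a rise of 0.15 (SE 0.0512, adjusted p = 0.0347). SRRM1 read 13.30, 13.21 and 13.22 in vehicle and 12.98, 13.17 and 13.10 in HHT, a fall of 0.16 (SE 0.0614, adjusted p = 0.04996). Neither gene's groups overlapped, yet the call of SON was lost in 4 and that of SRRM1 in 5 of the 6 fits without 1 array. SRRM2 differed by -0.27 on its brightest probe set and was not called, while another of its probe sets fell by 0.56.

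In some genes probe sets moved in opposite directions. Of 41 members with at least 2 tested probe sets, 7 (17.1%) had 1 that rose and 1 that fell: SRSF1, SRSF8, SRSF10, TRA2B, HNRNPA2B1, RBM39 and SON. Over all such genes of the array 5.33% did. Members have many probe sets, and with 4 or more tested the count was 6 of 24 beside 13.1%. With equal medians or equal controls only HNRNPA2B1 and SRSF1 remained of the 7. After quantile normalization all 7 kept opposite calls and HNRNPU joined them. The share of all genes with opposite calls under these scalings was not computed. The difference between a further probe set and the brightest one, array by array, was then tested in limma. It was called for 31 of 120 member pairs (25.8%) in 18 genes, beside 17% of all 12583 pairs. The further probe set was relatively higher in HHT in 18 pairs, beside a background of 5.69%, and lower in 13, beside 11.3%. Pairs whose further probe set had a level of at least 10 were counted too: 18 of 63 were called, 11 higher and 7 lower, beside 18.5%, 9.31% and 9.17%. The median size of a pair difference was 0.26 for members and 0.34 for all pairs.

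SRSF1 had the widest gap between probe sets. Its probe set 226419_s_at read 10.56, 10.07 and 10.50 in vehicle and 11.50, 11.29 and 11.14 in HHT, a rise of 0.94 (SE 0.133, adjusted p = 0.000181), while the brightest, 211784_s_at, fell by 1.10. Relative to the brightest, 226419_s_at went up by 2.04 (SE 0.147, adjusted p = 3.92e-05), or 4.11-fold. The groups of 226419_s_at did not overlap. In total 5 of the 8 SRSF1 probe sets fell, 1 rose and 2 were not called. The probe sets 229246_at and 239384_at kept close to their vehicle levels (-0.17 and 0.26, not called), so relative to the brightest they were higher by 0.94 and 1.36. The opposite held for 227164_at, which fell by 1.69, more than the brightest.

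In HNRNPA2B1, which binds and sorts RNAs and represses exons, the order of 2 bright probe sets turned over. The probe set 205292_s_at read 14.73, 14.76 and 14.73 in vehicle and 13.56, 13.73 and 13.70 in HHT, a fall of 1.08 (SE 0.0556, adjusted p = 1.85e-07). The probe set 225932_s_at read 13.66, 13.51 and 13.52 in vehicle and 14.15, 14.14 and 14.13 in HHT, a rise of 0.57 (SE 0.0545, adjusted p = 9.66e-06). On each vehicle array the first was the brighter one, by 1.07 to 1.25, and on each HHT array the second was, by 0.40 to 0.59. The relative change was 1.65 (SE 0.0694, adjusted p = 3.03e-06), or 3.14-fold, and stayed at 1.65 after quantile normalization. Another probe set, 225107_at, fell by 0.88.

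TRA2B also had a dimmer probe set that rose while the brightest fell, but their order did not change on any array. Its probe set 210180_s_at read 9.61, 9.65 and 10.09 in vehicle and 10.51, 10.83 and 11.0002 in HHT, a rise of 1.00 (SE 0.149, adjusted p = 0.000249). Relative to the brightest it was higher by 1.46 (SE 0.184, adjusted p = 0.000685), or 2.76-fold, and by 0.99 after quantile normalization. The gene's 3 other tested probe sets fell, by 0.44 to 0.80. TRA2B is a textbook case of a gene with a poison exon, but the files do not say which form 210180_s_at reads.

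**Figure D3:**
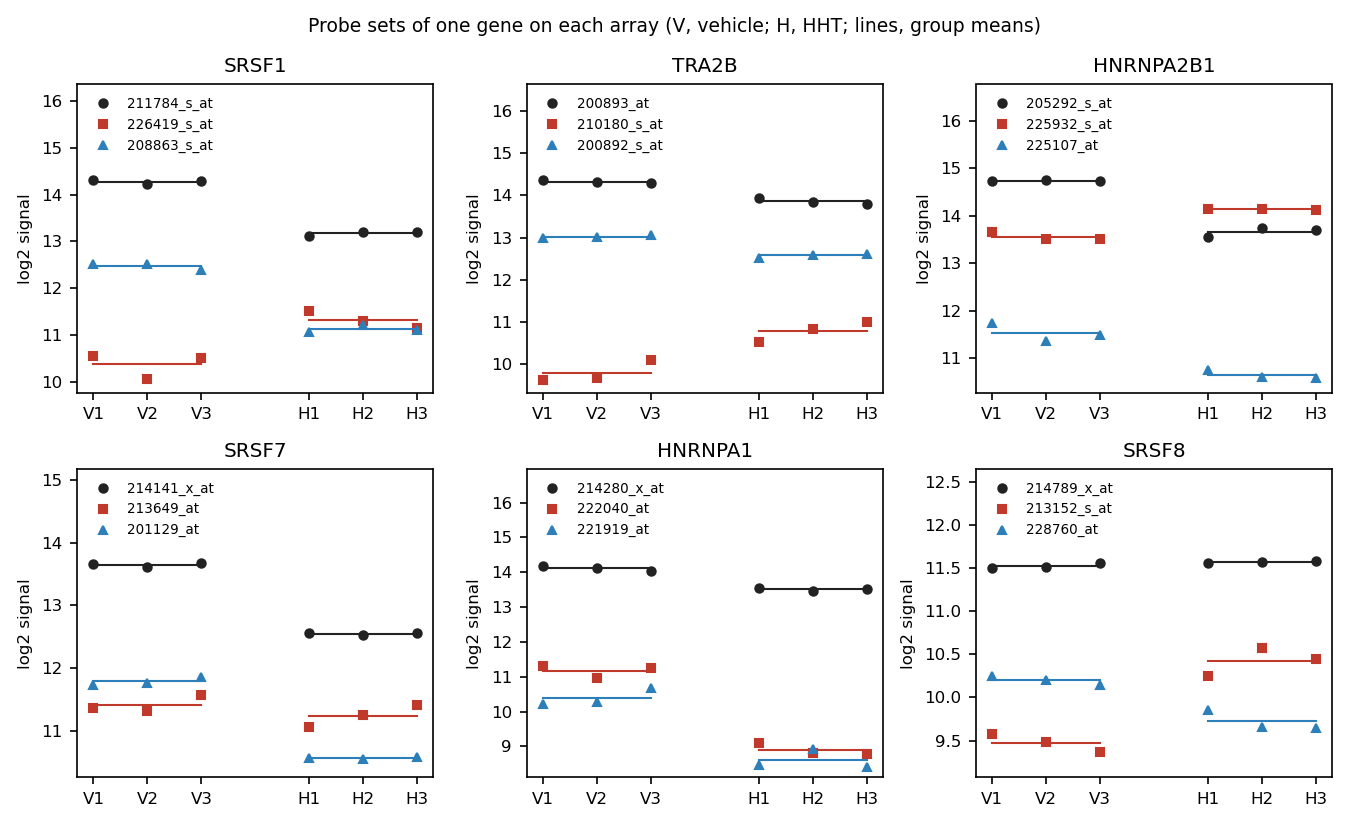
Log2 signal (y axis) of 3 probe sets on each vehicle (V1 to V3) and HHT (H1 to H3) array for SRSF1, TRA2B, HNRNPA2B1, SRSF7, HNRNPA1 and SRSF8, with lines for group means. In HNRNPA2B1 the 2 brightest probe sets change order between the groups, and in HNRNPA1 both dimmer probe sets drop further than the brightest.

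In SRSF7 the brightest probe set and 201129_at fell by 1.10 and 1.22, while 213649_at, at 11.37, 11.31 and 11.57 in vehicle and 11.07, 11.25 and 11.41 in HHT, was not called (-0.18, adjusted p = 0.172). The groups of 213649_at overlapped. Relative to the brightest it was higher by 0.92 (SE 0.107, adjusted p = 0.000458). A dim probe set, 211439_at, was relatively higher by 1.19 (adjusted p = 0.0120), a call lost without HHT replicate 2 (1.07, adjusted p = 0.0602).

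SRSF8 is a copy of SRSF2 made by retroposition, so its probe sets may read both genes. Its brightest probe set was not called (0.04, adjusted p = 0.562), but it was called with equal controls. The probe set 213152_s_at read 9.57, 9.48 and 9.37 in vehicle and 10.25, 10.57 and 10.45 in HHT, a rise of 0.95 (SE 0.102, adjusted p = 2.34e-05), while 228760_at and 238929_at fell by 0.48 and 0.55. Relative to the brightest, 213152_s_at was higher by 0.90 (SE 0.125, adjusted p = 0.00110), and the other two were lower by 0.52 and 0.60, calls lost in 2 and 5 of the 6 fits without 1 array. The falls of the other two were not called with equal medians (-0.24, adjusted p = 0.0980, and -0.32, adjusted p = 0.133).

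SRSF10 split at similar brightness. Its probe set 204299_at read 11.96, 12.09 and 12.13 in vehicle and 12.35, 12.34 and 12.34 in HHT, and 206095_s_at read 12.18, 12.22 and 12.02 and then 11.80, 11.92 and 11.92. The first rose by 0.28 and the second fell by 0.26. Neither pair of groups overlapped, and the relative change of 206095_s_at was -0.55 (SE 0.0964, adjusted p = 0.00407). Another probe set, 225348_at, was relatively lower by 0.73 (SE 0.109, adjusted p = 0.00170).

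HNRNPA1, the best known repressor among the hnRNPs, went the other way: its further probe sets fell more than the brightest. The brightest read 14.18, 14.13 and 14.02 in vehicle and 13.54, 13.46 and 13.52 in HHT, a fall of 0.60 (SE 0.0557, adjusted p = 8.11e-06). The probe set 222040_at read 11.32, 10.95 and 11.26 in vehicle and 9.10, 8.80 and 8.79 in HHT, a fall of 2.28 (SE 0.120, adjusted p = 2.08e-07), or 4.86-fold, the largest among the 166 tested member probe sets. The third, 221919_at, fell by 1.78. Relative to the brightest they fell by 1.68 (SE 0.138, adjusted p = 7.14e-05) and 1.18 (SE 0.201, adjusted p = 0.00336). The brightest is of the kind that may match other sequences, and its share of HNRNPA1 copies was not tested.

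Dimmer probe sets also fell further in HNRNPC and HNRNPU. The HNRNPC probe set 227110_at read 11.49, 11.57 and 11.58 in vehicle and 10.20, 10.20 and 10.33 in HHT, a fall of 1.30 where the gene's brightest, at 14.13, 13.83 and 13.99 and then 13.45, 13.39 and 13.44, fell by 0.56. The relative change was -0.75 (SE 0.112, adjusted p = 0.00166). HNRNPU, a scaffold protein of the nucleus, had 14.23, 14.13 and 14.24 in vehicle and 14.03, 14.09 and 14.06 in HHT on its brightest probe set. Its dimmer 235603_at read 8.91, 8.98 and 8.85 and then 8.10, 7.93 and 8.04, a relative change of -0.75 (SE 0.151, adjusted p = 0.00782). In both genes the groups of the dimmer probe set lay far apart. HNRNPR had a further pair of this kind, at -0.65.

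SF3B1, RBM39 and SON gave pairs whose calls were lost in 4 or 5 of the 6 fits without 1 array. The SF3B1 probe set 214305_s_at read 9.98, 9.88 and 10.45 in vehicle and 10.53, 11.61 and 11.73 in HHT, so that HHT replicate 1 lay near the highest vehicle array. Its relative change was 1.05 (SE 0.270, adjusted p = 0.0248), and 201070_x_at had 1.00 (adjusted p = 0.0387). Both calls were lost in 4 of the 6 fits without 1 array, those without HHT replicate 2 (adjusted p = 0.0910 and 0.131), HHT replicate 3 (0.0859 and 0.129), vehicle replicate 1 (0.0798 and 0.102) and vehicle replicate 2 (0.0972 and 0.139). In RBM39, 226404_at rose from 8.10, 8.11 and 7.88 to 8.54, 8.45 and 8.52, while 208720_s_at fell from 12.89, 12.83 and 12.64 to 12.40, 12.34 and 12.30. Relative to the brightest they were at 0.62 (adjusted p = 0.0191) and -0.29 (adjusted p = 0.0293). In SON, 4 of 5 probe sets rose and 213538_at fell, from 10.28, 10.14 and 9.92 to 9.77, 9.84 and 9.90, with a relative change of -0.43 (adjusted p = 0.0383). Its 226465_s_at was relatively higher by 0.34. The pairs of 226404_at and 226465_s_at lost their call in 4 of the 6 such fits, and those of 208720_s_at and 213538_at in 5.

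The remaining called pairs were in 5 genes. The dimmer PTBP3 probe sets were relatively higher by 0.66 and 0.63, 2 of HNRNPA3 by 0.46 and 0.42, 1 of HNRNPDL by 0.43 and 1 of HNRNPD by 0.42. One HNRNPK probe set was relatively lower by 0.26. In these last 4 genes the probe set that differed most from the brightest still fell or was not called, so none had opposite calls. Among genes with at least 2 tested probe sets, every one fell in 10 (SRSF3, SRSF6, HNRNPA0, HNRNPA1, HNRNPA3, HNRNPDL, HNRNPK, HNRNPR, HNRNPU and U2AF2). In 3 of these genes every one rose (SRPK2, RBM10 and SF3B1). Over all 46 genes, none was called in 3: HNRNPF, which had 1 tested probe set, HNRNPH3 and PTBP1.

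The rest of the splicing machinery was read from 4 lists of other genes. In the U1, U2 and Sm core snRNP list, the particles that first bind a splice site, 16 of 22 genes fell and 3 rose, with a median of -0.55, beside 24.2% and 29.6% of all genes. The mean level of this list was 12.50 to 12.54 on the vehicle arrays, but its genes ranged widely, from 9.89 (SF3A2) to 14.44 (SNRPG). Of all genes at a mean level of 13 or more 69.3% fell, between 11 and 13 34.6%, and below 11 18.5%. The part of signal level in the falls of this list was not tested. SNRPD3 and SNRPF, subunits of the Sm ring, fell by 0.93 (SE 0.0586, adjusted p = 6.40e-07) and 0.92 (SE 0.0722, adjusted p = 2.56e-06). In the U4/U6.U5 tri-snRNP and catalytic list, 15 of 38 genes measured rose and 12 fell, with a median of 0.17. The mean level of this list was 11.12 to 11.13 on the vehicle arrays. Its counts are near the shares of all genes between 11 and 13, of which 39.8% rose and 34.6% fell. SLU7, which acts in the second step of splicing, rose by 1.25 (SE 0.0791, adjusted p = 6.25e-07), and PRPF19, the scaffold of a complex that activates the spliceosome, fell by 0.96 (SE 0.0627, adjusted p = 7.59e-07). Only 1 gene of that list fell with equal medians. Of 43 other RNA-binding splicing regulators 23 fell and 12 rose, with a median of -0.24, beside 24.2% and 29.6% of all genes. The mean level of this list was 12.13 to 12.16 on the vehicle arrays. Of all genes between 11 and 13 34.6% fell and 39.8% rose, and of those at 13 or more 69.3% fell. The part of signal level in the falls of these regulators was not tested. MBNL2, a muscleblind protein, rose by 1.78 (SE 0.148, adjusted p = 3.80e-06). MATR3, a nuclear matrix protein, fell by 2.21 (SE 0.252, adjusted p = 3.62e-05) on 1 probe set, as its others were annotated to a second gene as well.

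The genes that mark and destroy transcripts with early stop codons were measured in part. Of 17 genes of the exon junction complex and of nonsense-mediated decay, 11 were measured, of which 3 rose, 3 fell and 5 were not called, with a median of 0.00. These counts are near the background of 29.6% that rose and 24.2% that fell. EIF4A3, the helicase that anchors the exon junction complex, read 13.87, 13.80 and 13.64 in vehicle and 12.62, 12.58 and 12.48 in HHT, a fall of 1.21 (SE 0.0691, adjusted p = 3.34e-07). SMG6, the endonuclease that cuts such transcripts, rose by 1.30 (SE 0.324, adjusted p = 0.00704) from a low level of 5.22 ± 0.283 in vehicle (SD, n = 3). UPF2, the adaptor between the junction complex and UPF1, rose by 1.08 (SE 0.0541, adjusted p = 1.55e-07), but it was chosen after its value was seen.

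**Figure D4:**
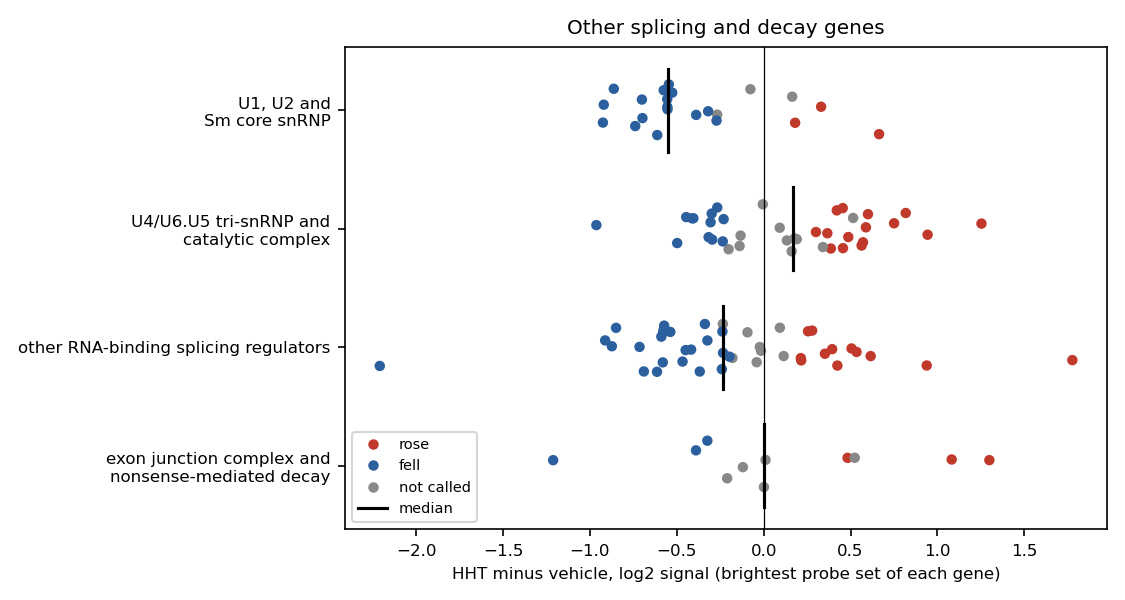
Difference in log2 signal between HHT and vehicle (x axis) for the brightest probe set of each gene in 4 other splicing and decay lists, coloured by call, with a line at each list's median. The U1, U2 and Sm core list lies mostly left of 0, with a median of -0.55, and the tri-snRNP and catalytic list is spread to both sides, with a median of 0.17.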

How the data were processed

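Messenger RNA of 3 vehicle and 3 HHT samples was measured on 1-colour arrays. Values were deposited by the authors as log2, with 1 signal for each probe set, made with MAS5 (per the submitters' processing notes, which give no version). A check of the values found a trimmed mean of 500.06 to 500.07 on the antilog scale of each array. The genome build is not given in the sources used here. Control probe sets (62) and the 40% of the others with the lowest mean (a level of 4.80) were left out, which left 32768. Symbols of the platform annotation were updated through Entrez IDs.

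Groups were compared in limma 3.58.1 (R 4.3.3) with a variance trend on level and Benjamini-Hochberg adjustment over all probe sets or all 12583 pairs tested. For pairs the trend used the level of the further probe set. The script was tested on simulated data. Calls need an adjusted p under 0.05. The number of arrays limits the precision. Described in full were, per role, the 2 called genes of largest change, members with opposite calls, the 10 members with the largest called pairs and 2 genes per list. The members and lists were chosen with earlier results of these data known.

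Alternatives were equal hybridisation controls, equal medians, quantile normalization, a pseudocount of 1 or 64, no filter, a 60% filter, no trend, a robust trend, array weights, a replicate block, stricter thresholds, an average over the probe sets of a gene, no _x_at probe sets, and leaving out each array.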

Additional observations from a re-analysis of the deposited data

How the results depend on the processing

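With equal medians 17 member genes and 48 probe sets fell, and with equal hybridisation controls 17 and 49; genes with opposite calls were 2 under both. An absolute change of at least 1 left 1 gene that rose and 6 that fell, 7 and 21 probe sets, 0 opposite genes and 9 pairs. Pairs numbered 19 with no variance trend and 18 at an adjusted p under 0.01. Beyond the genes that rose or fell under the scalings, shares over the whole array were not computed for the counts in this paragraph. These counts therefore do not compare the members with the array. Without 1 array, 9 to 11 genes rose, 24 to 26 fell, 31 to 34 probe sets rose, 74 to 78 fell, 6 to 7 genes had opposite calls, and 20 to 30 pairs were called, with 20 without HHT replicate 2 and 20 without HHT replicate 3. The pairs of SRSF1 226419_s_at, HNRNPA2B1 225932_s_at, TRA2B 210180_s_at, both of HNRNPA1, SRSF7 213649_at, SRSF8 213152_s_at and SRSF10 225348_at were called in all 6 such fits. The other settings left these counts within 1.5 times.

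Signs turned with equal medians for SRSF11 (0.081), HNRNPF (0.24), HNRNPH3 (0.22), HNRNPL (0.060), HNRNPU (0.099), PTBP1 (0.20), RBM39 (0.091), SRRM1 (0.075) and probe sets 229246_at (0.073) and 213649_at (0.062), none called. With quantile normalization SRSF11 (0.17), HNRNPH1 (0.011), HNRNPK (0.056), RBM39 (0.064) and SRRM1 (0.090) turned and were not called, while HNRNPH3 (0.30), HNRNPU (0.24) and PTBP1 (0.24) turned and were called. With equal controls HNRNPF (0.28), HNRNPH3 (0.26) and PTBP1 (0.24) turned and were called, and SRSF11 (0.13), TRA2A (0.039), HNRNPL (0.11), HNRNPU (0.14), RBM39 (0.14), SRRM1 (0.12), SRRM2 (0.014) and probe sets 229246_at (0.12), 213649_at (0.11), 206095_s_at (0.023) and 213538_at (0.0043) turned and were not called. An average over probe sets turned SRSF8 (-0.010), SRSF11 (0.021) and SRRM1 (0.018). Without 1 array SRSF11 ranged from -0.29 to 0.0023, HNRNPF from -0.027 to 0.029, PTBP1 from -0.11 to 0.019 and 211439_at from -0.021 to 0.23, none called. Scaling shifts all changes of an array by construction; otherwise the cause was not tested.

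Among the lists, genes that fell numbered 1 and 2 of the tri-snRNP list, 12 and 11 of the other RNA-binding regulators and 1 and 1 of the decay list with equal medians and equal controls, and 5 of the decay list rose with equal controls. At an adjusted p under 0.01, 1 decay gene fell. With a change of at least 1, no list kept more than 1 gene that rose or 1 that fell, other than 2 decay genes that rose. Correlations were 0.07, -0.01 and 0.05 between same-numbered arrays and -0.09 to 0.04 between differently numbered ones. With so few arrays they cannot settle whether the numbers pair the arrays. With the replicate block 10 genes rose, 25 fell and 32 pairs were called; the calls of HNRNPU, SF3B1, SRRM1 and 213538_at and the pairs of 238929_at and 213538_at were lost.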
